A study of Mus musculus with 14 samples.

Results

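The expression arrays compared here come from Sca1+/cKit- bone marrow cells of mice that carried a non-instigating tumour and of mice that received Matrigel alone. The Non-instigator group holds 5 arrays and the Matrigel group 4, so 9 of the 14 arrays of the series enter the comparison, chosen by their sample titles. Non-instigator hosts bore tumours of PC3, an established human prostate carcinoma line. Matrigel, a basement membrane gel in which tumour cells can be implanted, served as the control without a tumour. The remaining 5 arrays form the Instigator group, whose hosts bore BPLER tumours, a transformed human breast line, matched in size to the PC3 tumours. All 3 groups share the sort, in which marrow cells that carried the surface antigen Sca1 and lacked the receptor cKit were collected by flow cytometry into Trizol. The labels used here name no host strain, age, sex or immune status, and do not say whether an array holds 1 animal or a pool. Nothing in them states that replicates came from separate animals. The p-values below therefore reflect only how far these arrays differ from each other, and that variation may be technical.

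Sca1 (Ly6a) is an antigen of mouse haematopoietic stem and progenitor cells that is also displayed by many lymphocytes and by endothelial and stromal cells. cKit (Kit) is the stem cell factor receptor of early progenitors, and sorting against it removes most of them. A Sca1+/cKit- fraction is therefore a mixture in which lymphoid, dendritic and myeloid cells can all be present. In work on systemic instigation, a tumour is called instigating when it stimulates the growth of a second, otherwise indolent tumour at a distant site through the host's marrow cells. The comparison of the non-instigating host with Matrigel asks what a tumour without that activity does to the same marrow cells.

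The values are log2 intensities of probe sets, each a group of short probes against 1 transcript. A difference of 1 is a 2-fold change, and a difference is always Non-instigator minus Matrigel. A gene stands for its brightest probe set that names it alone, which gave 12393 genes from 22626 probe sets. Probe sets differ in how strongly they bind, so intensities of different genes are not ranked against each other. In a sorted mixture, fewer cells of a type and less RNA per cell cannot be told apart.

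No probe set was called different between the 2 groups. With limma and Benjamini-Hochberg adjustment over all 22626 probe sets, 0 were called at an adjusted p below 0.05 (0%), and the smallest adjusted p was 0.986. At an unadjusted p below 0.05 there were 477 probe sets (2.11%), of which 136 were higher and 341 lower in the Non-instigator group. That share depended on single arrays: it was 5.65% (1279 probe sets) without Matrigel 1, 3.94% without Matrigel 2, 3.52% without Matrigel 4 and 3.69% (836) without Instigator 4. Nothing was called in any of these fits, so the genes named below are described by their values.

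One control array stood apart. Matrigel 3 had a median intensity of 145 against 119 to 129 on the other 13 arrays of the series. On the first principal component of the 9 arrays it lay at 56.1, while the others lay between -10.3 and -3.35. Without it, 0 probe sets were again called (0%), the smallest adjusted p was 1.00, and 182 probe sets (0.804%) passed an unadjusted p of 0.05, with 84 higher and 98 lower. Of the 477 and the 182 probe sets, 112 were shared, which is 23.5% of the first and 61.5% of the second. The excess of lower values moved with this array and with scaling: the higher probe sets made up 28.5% of those below an unadjusted p of 0.05 with all arrays, 46.2% without Matrigel 3, 50.1% (245 higher and 244 lower) after quantile normalization and 57.7% (274 higher and 201 lower) after centring each array on its median. The median difference over all probe sets was -0.04 and became 0.00 without Matrigel 3. Outside the 2 compared groups, Instigator 4 also stood apart. On the first principal component of all 14 arrays it lay at 73.8, while the others lay between -19.6 and 7.98. This array enters the shared estimate of the spread and the Instigator means given below.

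**Figure D1:**
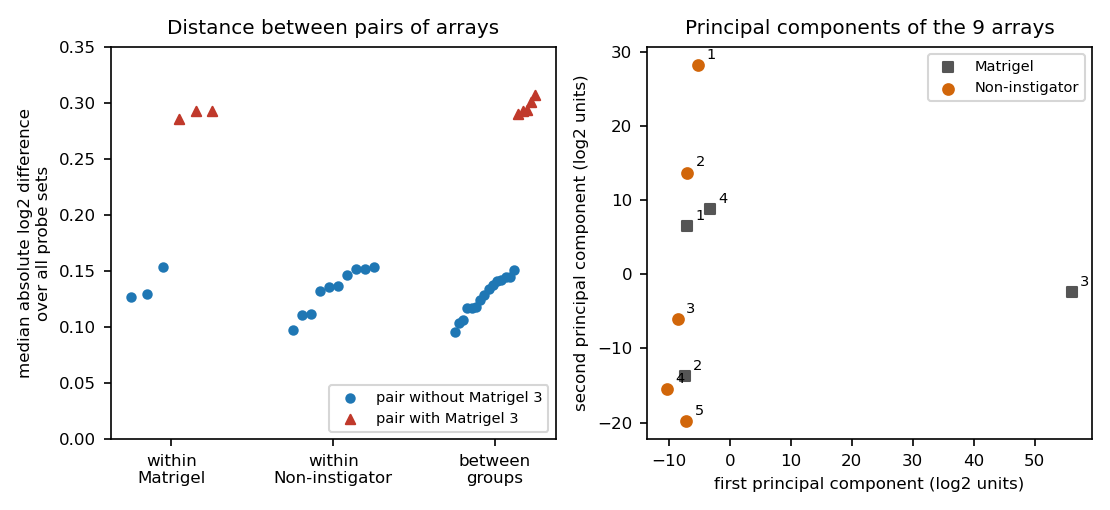
Left, the median absolute log2 difference over all probe sets for each pair of arrays, within the Matrigel group (6 pairs), within the Non-instigator group (10 pairs) and between the groups (20 pairs), with pairs that hold Matrigel 3 as triangles. Right, the first against the second principal component of the 9 arrays in log2 units, numbered by replicate. Pairs between groups lie as close as pairs within a group once Matrigel 3 is set aside, and Matrigel 3 lies alone at 56.1 on the first component.

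Arrays of different groups were as similar as arrays of 1 group. The median absolute log2 difference of a Non-instigator array from a Matrigel array was 0.139 over the 20 pairs, against 0.136 over the 10 pairs within the Non-instigator group and 0.220 over the 6 pairs within the Matrigel group. Without Matrigel 3 the 3 medians were 0.129, 0.136 and 0.130. On the second component the Non-instigator arrays themselves were spread the farthest, from 28.3 for Non-instigator 1 to -19.8 for Non-instigator 5, with the Matrigel arrays between them.

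The design bounds the size of any difference. The standard error of a difference had a median of 0.125, and for 22339 probe sets (98.7%) the 95% interval lay within a 2-fold change in either direction. A narrower bound of 0.5 on the log2 scale held for 17139 probe sets (75.7%). The measured difference itself was below 0.5 in size for 22535 probe sets (99.6%) and above 1 for 5, or 3 without Matrigel 3. These intervals are not adjusted for the number of probe sets.

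Among genes the shares were similarly small. Of the 12393 genes, 98 were higher (0.791%) and 145 lower (1.17%) at an unadjusted p below 0.05, and without Matrigel 3 these were 60 (0.484%) and 36 (0.29%). The 5 Non-instigator values all lay above the 4 Matrigel values for 43 genes (0.347%) and all below them for 50 genes (0.403%). With 3 Matrigel arrays, which separate more easily, the counts were 127 (1.02%) and 73 (0.589%).

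The gene with the smallest p among higher genes was Slc25a20, the carrier that moves acylcarnitines across the inner mitochondrial membrane for fatty acid oxidation. Its log2 intensity was 9.66, 9.38, 9.71 and 9.39 on Matrigel 1 to 4 and 9.85, 9.84, 10.04, 9.88 and 9.83 on Non-instigator 1 to 5. Every Non-instigator value lay above every Matrigel value, and the difference was 0.35 (SE 0.08, 95% interval 0.17 to 0.53, limma adjusted p = 0.986). Without Matrigel 3 it was 0.41 with an adjusted p of 1.00, and its second probe set gave 0.20. Cpt1a, which makes the acylcarnitines that this carrier transports, was at 9.56, 9.50, 8.06 and 9.45 on the Matrigel arrays and at 9.86, 9.38, 9.94, 10.09 and 10.02 on the Non-instigator arrays. Here Matrigel 3 was the low array and Non-instigator 2 lay inside the Matrigel range, so the difference of 0.71 (SE 0.29) fell to 0.35 without Matrigel 3. That probe set carries an x_at suffix, the maker's mark for probes that can also bind other transcripts. Another x_at probe set of Cpt1a gave 0.62, or 0.42 without Matrigel 3. The Cpt1a probe set without that suffix gave 0.48, or 0.65 without Matrigel 3. On that probe set Matrigel 3 was the highest control, at 7.71 against 6.83 to 7.18.

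The fatty acid oxidation list as a whole was divided. Of its 17 measured genes 8 were higher and 9 lower, with a median of -0.01, and 13 were higher and 4 lower without Matrigel 3, with a median of 0.08. Over all genes 4747 were higher and 7646 lower with a median of -0.04, and 6453 and 5940 with a median of 0.00 without Matrigel 3. On the side of synthesis, 12 of 15 fatty acid and sterol genes were lower, with a median of -0.14 (-0.11 without Matrigel 3). Scd2, a stearoyl-CoA desaturase that makes monounsaturated fatty acids, was at 10.80, 10.57, 10.72 and 10.71 in the Matrigel group and at 10.53, 10.31, 10.47, 10.30 and 10.28 in the Non-instigator group. The groups did not overlap, with a difference of -0.32 (SE 0.11, adjusted p = 0.986) that stayed at -0.32 without Matrigel 3.

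A dimmer Scd2 probe set separated the groups more widely. It was at 9.13, 9.11, 9.46 and 8.99 on the Matrigel arrays and between 8.41 and 8.61 on the 5 Non-instigator arrays, a difference of -0.64. In the fit of 14 arrays its standard error was 0.34, because the Instigator arrays share the estimate of the spread and Instigator 4 read 6.35 for Scd2 against 8.33 to 8.48 on the other 4. With Instigator 4 left out the standard error was 0.09 and limma's adjusted p was 0.126, and with Matrigel 3 left out too the difference was -0.55 with an adjusted p of 0.0623, the lowest that any alternative gave any probe set. In the limma fit of the 9 compared arrays alone, without any Instigator array, the adjusted p of this Scd2 probe set was 0.665. The third Scd2 probe set gave -0.24, and 0.05 without Matrigel 3. Idi1, an enzyme of isoprenoid synthesis in the sterol pathway, differed by -0.37 (SE 0.14), with Matrigel values from 8.79 to 9.45 that overlapped the Non-instigator values from 8.42 to 9.12.

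**Figure D2:**
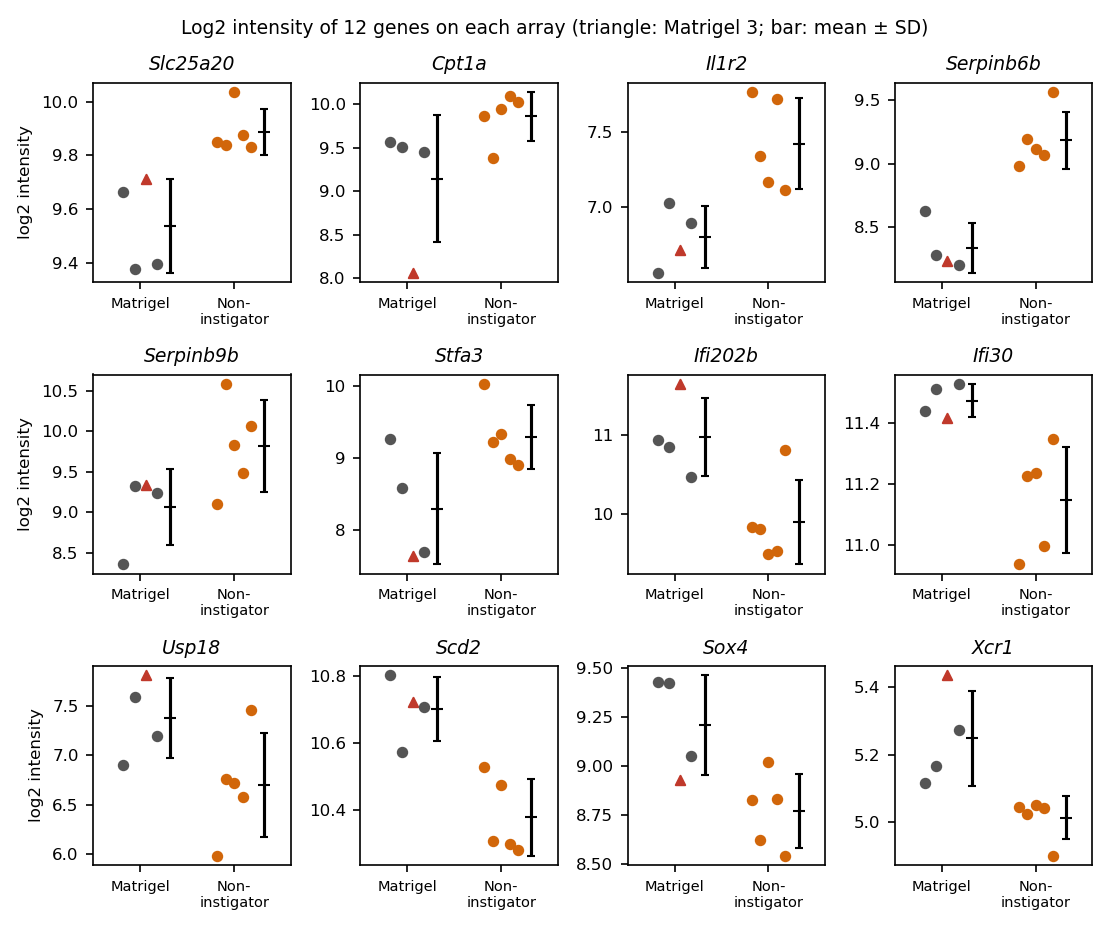
Log2 intensity of 12 genes on each of the 4 Matrigel arrays (grey, Matrigel 3 as a red triangle) and the 5 Non-instigator arrays (orange), with the mean ± SD beside each group. Slc25a20, Il1r2, Serpinb6b, Ifi30, Scd2 and Xcr1 show groups that do not overlap, and the remaining 6 genes overlap through 1 or more arrays.

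Serpinb6b, an intracellular serine protease inhibitor, was at 8.63, 8.28, 8.24 and 8.20 on the Matrigel arrays and at 8.98, 9.19, 9.12, 9.07 and 9.56 on the Non-instigator arrays. Its groups did not overlap, and the difference of 0.85 (SE 0.29, adjusted p = 0.986) was 0.81 without Matrigel 3. The Instigator mean for Serpinb6b was 8.61, and Instigator minus Non-instigator was -0.57 (limma adjusted p = 0.813). Serpinb9b, of the same inhibitor family, was at 8.35, 9.32, 9.34 and 9.24 against 9.10, 10.59, 9.83, 9.48 and 10.07, so Non-instigator 1 fell inside the Matrigel range, and the difference was 0.75 (SE 0.28).

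Stfa3, a stefin that inhibits cysteine proteases and is abundant in mouse neutrophils, had the largest higher difference among genes with a mean log2 intensity of at least 7. It read 9.26, 8.58, 7.64 and 7.69 on the Matrigel arrays and 10.04, 9.22, 9.33, 8.98 and 8.90 on the Non-instigator arrays. The Matrigel group itself spanned more than the difference of 1.00 (SE 0.34), and the groups overlapped through Matrigel 1. Without Matrigel 3 the difference for Stfa3 was 0.78.

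Il1r2, the decoy receptor that binds interleukin 1 without signalling, was at 6.56, 7.03, 6.71 and 6.90 against 7.77, 7.34, 7.17, 7.72 and 7.12. The groups did not overlap, and the difference was 0.62 (SE 0.20, adjusted p = 0.986), or 0.59 without Matrigel 3. It was the only gene of the interleukin 1, TNF and chemokine list whose groups were separate. In that list 12 of 18 genes were higher, with a median of 0.14 that fell to 0.07 without Matrigel 3. The chemokine Ccl6 and the chemokine receptor Ccr1 differed by 0.32 each with Matrigel 3, their lowest array, and by 0.14 and 0.11 without it.

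Other higher genes with small spread included Anxa6, an annexin that binds membranes in a calcium-dependent way, at 9.77 ± 0.04 (SD, n = 4) against 10.08 ± 0.12 (SD, n = 5). Hgsnat, a lysosomal acetyltransferase of heparan sulfate breakdown, was at 7.81 ± 0.06 (SD, n = 4) against 8.08 ± 0.08 (SD, n = 5). Arap3 differed by 0.61 (SE 0.19), while its second probe set gave 0.07. Groups were separate for Anxa6, Hgsnat and Arap3, yet the 2 dimmer probe sets of Anxa6 gave 0.17 and -0.17. The autophagy kinase Ulk1 had probe sets of opposite sign, 0.39 and -0.24, or 0.28 and -0.07 without Matrigel 3. Kcnab2, a potassium channel subunit, gave 0.25 and -0.03, or 0.25 and 0.13 without Matrigel 3.

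Ifi202b, a p200 family protein that binds DNA and is induced by interferon, had the smallest p among lower genes. It was at 10.94, 10.85, 11.66 and 10.47 on the Matrigel arrays and at 9.84, 9.81, 9.50, 9.54 and 10.82 on the Non-instigator arrays. Non-instigator 5 alone reached into the Matrigel range, and Matrigel 3 was the highest array. The difference was -1.08 (SE 0.27, 95% interval -1.65 to -0.50, adjusted p = 0.986), -0.85 without Matrigel 3 and -1.31 without Non-instigator 5. The Instigator mean for Ifi202b was 10.12, which was 0.22 above the Non-instigator mean.

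Ifi30, a lysosomal thiol reductase that prepares antigens for presentation on MHC class II, was at 11.44, 11.51, 11.41 and 11.53 on the Matrigel arrays and at 10.94, 11.22, 11.23, 11.00 and 11.35 on the Non-instigator arrays. The 2 groups did not overlap, with a difference of -0.33 (SE 0.11, adjusted p = 0.986) that was -0.34 without Matrigel 3. Usp18, which removes the ubiquitin-like protein ISG15 and restrains interferon signalling, differed by -0.68 (SE 0.26), with Matrigel values of 6.90 to 7.81 and Non-instigator values of 5.98 to 7.46. Ifi44l differed by -0.66 (SE 0.36), a value set largely by Non-instigator 1 at 6.26, since the other 4 Non-instigator arrays lay between 7.56 and 8.34 and the Matrigel arrays between 8.07 and 8.34.

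Type I interferon induces many genes through the interferon-stimulated response element, a short promoter sequence. Its core, GAAA, any 2 bases and GAAA, was searched on both strands in RefSeq promoters (mouse build GRCm38.p6) from 250 bases before to 50 bases after each start. Of the 18 measured genes on the type I interferon list, 12 had a promoter in the table and 8 of these held the core, against 3.99% of all 27025 genes in the table. The windows of 3 list members are shown because their values are given next, on the gene's strand from 5′ to 3′ with each match in capitals, so that TTTC, any 2 bases and TTTC marks a core on the opposite strand. A match describes letters and is not evidence of binding in these cells.
Ifit1, chr19:34640765-34640833, plus strand: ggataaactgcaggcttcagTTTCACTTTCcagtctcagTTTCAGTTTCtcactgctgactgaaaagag
Ifit3, chr19:34583353-34583436, plus strand: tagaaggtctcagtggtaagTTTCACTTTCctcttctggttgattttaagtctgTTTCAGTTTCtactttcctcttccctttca
Oas1a, chr5:120907510-120907565, minus strand: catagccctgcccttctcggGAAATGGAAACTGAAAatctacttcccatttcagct

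Ifit1 and Ifit3 each held 2 separate cores, and Oas1a held 2 cores that overlap in its capital run. Ifit1, whose product binds foreign capped RNA, was at 6.07, 5.68, 6.17 and 5.68 on the Matrigel arrays and at 5.09, 5.81, 5.92, 5.38 and 5.84 on the Non-instigator arrays, a difference of -0.29 (SE 0.19). Ifit3, its partner protein, differed by -0.28 (SE 0.13), or -0.18 without Matrigel 3. Oas1a, which makes the 2-5 oligoadenylate that activates RNase L, differed by -0.42 (SE 0.20) and by -0.23 without Matrigel 3, where it read 8.89 against 8.10 to 8.16 on the other Matrigel arrays. In all 3 genes the groups overlapped, and Non-instigator 1 was the lowest array for Ifit1 and Oas1a. Among the 18 list genes 13 were lower and 5 higher, with a median of -0.15, and without Matrigel 3 there were 15 and 3 with a median of -0.12. The list mean on Non-instigator 1 was 7.03, below the 7.34 to 7.64 of the other Non-instigator arrays and the 7.49 to 7.67 of the Matrigel arrays, and without that array the median was -0.09. The core was not found in the windows of Ifi202b, Ifi30 or Ifi44l.

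**Figure D3:**
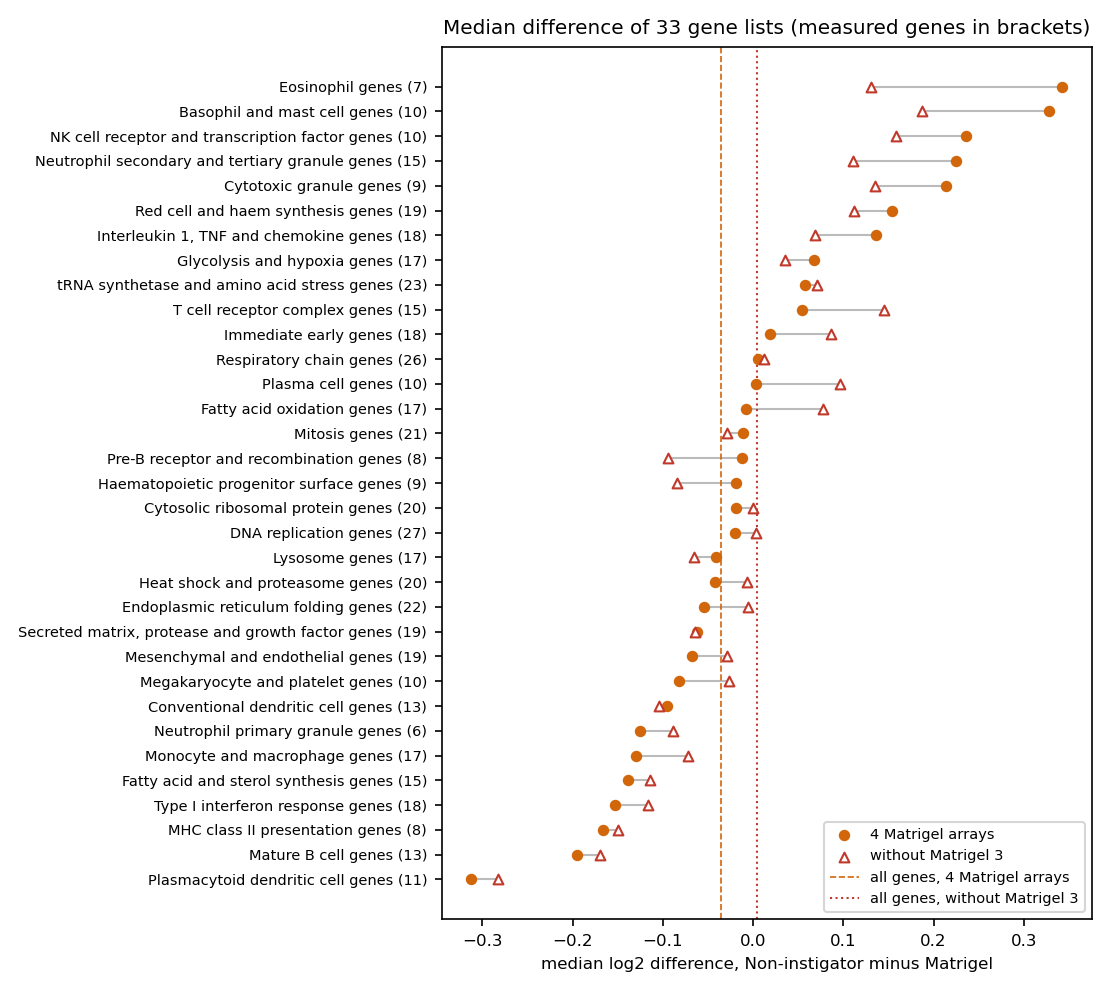
Median log2 difference of the measured genes in each of 33 lists, with all 4 Matrigel arrays (orange points) and without Matrigel 3 (red triangles), and the medians over all genes as dashed and dotted lines. Eosinophil, basophil, NK and granule lists lie to the right and plasmacytoid dendritic, mature B and MHC class II lists to the left, and leaving out Matrigel 3 brings the eosinophil list from 0.34 to 0.13.

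The gene lists for cell types were read by counts and medians, with no test. The 2 lists of neutrophil granule genes had medians of opposite sign. For primary granule genes, which promyelocytes express, 6 of 6 measured genes were lower, with a median of -0.13 (-0.09 without Matrigel 3). Ctsg, the protease cathepsin G, differed by -0.17 (SE 0.20), and the proteinase Prtn3 by -0.21 (SE 0.24). Their spread lay mainly within the Non-instigator group, where the list mean was 12.24 on Non-instigator 1, 11.82, 11.67 and 11.61 on the next 3 and 11.05 on Non-instigator 5, against 11.45 to 11.95 on the Matrigel arrays. The median was -0.25 without Non-instigator 1 and 0.01 without Non-instigator 5.

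For secondary and tertiary granule genes, which later neutrophil stages express, 14 of 15 were higher, with a median of 0.22 that fell to 0.11 without Matrigel 3. Mmp8, neutrophil collagenase, was at 9.91, 9.91, 9.35 and 9.42 against 9.98, 9.73, 10.23, 10.23 and 9.90, a difference of 0.37 (SE 0.14) with overlapping groups. Ltf, the iron-binding protein lactoferrin, read 11.22 on Matrigel 3 and 12.00 to 12.22 on the other Matrigel arrays, and its difference of 0.32 became 0.11 without that array. Matrigel 3 was the lowest Matrigel array for 10 of the 15 genes, against 2656 of all 12393 genes.

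Basophil and mast cell genes were higher for 9 of 10, with a median of 0.33 (0.19 without Matrigel 3, and up to 0.41 with another single array left out). Mcpt8, a protease that marks basophils, was at 9.43, 9.16, 9.06 and 9.67 on the Matrigel arrays and at 9.96, 9.25, 9.74, 10.79 and 9.75 on the Non-instigator arrays. Non-instigator 4 was the highest array for Mcpt8, for the carboxypeptidase Cpa3 (7.86) and for the IgE receptor chain Fcer1a (7.33), and the differences were 0.57 (SE 0.25), 0.47 (SE 0.39) and 0.40 (SE 0.25). Eosinophil genes were higher for 7 of 7, with a median of 0.34 that became 0.13 without Matrigel 3 and 0.56 without Matrigel 2. Matrigel 3 was the lowest Matrigel array for 6 of the 7, against 2656 of all 12393 genes. Epx, eosinophil peroxidase, ranged from 9.02 to 10.44 in the Matrigel group and from 9.79 to 10.96 in the Non-instigator group, so its difference of 0.45 (SE 0.37) lay within the spread of the controls. Alox15, a lipoxygenase of eosinophils and macrophages, differed by 0.72 (SE 0.39), and by 0.49 without Matrigel 3.

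NK cell receptor and transcription factor genes were higher for 10 of 10, with a median of 0.24 (0.16 without Matrigel 3). Il2rb, a receptor chain for interleukins 2 and 15, was at 8.64, 8.97, 8.91 and 8.49 against 8.76, 9.38, 8.94, 9.33 and 9.53, a difference of 0.43 (SE 0.22). Eomes, a transcription factor of NK and memory T cells, differed by 0.41 (SE 0.23), and Nkg7, a granule membrane protein, by 0.23 (SE 0.11). For these genes Non-instigator 5 was the highest array and Non-instigator 1 lay among the controls. The list mean ran from 9.14 to 9.73 on the Matrigel arrays and from 9.23 to 9.95 on the Non-instigator arrays. Cytotoxic granule genes, from granzymes to the death ligand Fasl, were higher for 8 of 9 with a median of 0.21 (0.13 without Matrigel 3). Fasl itself was at 7.75 to 7.96 on the Matrigel arrays and at 7.90 to 8.63 on the Non-instigator arrays, of which only Non-instigator 3 lay inside the control range.

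T cell receptor complex genes were higher for 12 of 15, with a median of 0.05 that ran from -0.11 without Non-instigator 4 to 0.22 without Non-instigator 1 (0.15 without Matrigel 3 and -0.04 without Non-instigator 5), and varied widely among the Non-instigator arrays. Cd8a, the co-receptor of cytotoxic T cells, was at 8.04, 8.13, 8.40 and 8.21 in the Matrigel group and at 7.36, 7.96, 7.65, 9.69 and 8.97 in the Non-instigator group. Its difference of 0.14 (SE 0.41) was the balance of 3 arrays below and 2 above the controls. Il7r, the interleukin 7 receptor of T cells and lymphoid precursors, likewise ran from 9.72 to 11.34 in the Non-instigator group and from 9.50 to 10.51 in the Matrigel group.

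The median of the mature B cell genes depended on single arrays, which pulled it in opposite directions. Of 13 mature B cell genes 11 were lower, with a median of -0.20 (-0.17 without Matrigel 3). Cd79a, a signalling chain of the B cell receptor, was at 9.69, 9.96, 10.09 and 9.28 on the Matrigel arrays and at 8.62, 9.39, 9.53, 9.56 and 10.16 on the Non-instigator arrays. Non-instigator 1 was the lowest and Non-instigator 5 the highest of the 9 arrays, and the difference was -0.30 (SE 0.30). Leaving out Non-instigator 1 brought the list median to 0.01, leaving out Matrigel 4 to -0.35 and leaving out Non-instigator 5 to -0.40. Ighg3, an IgG heavy chain, ranged from 7.05 to 11.05 in the Matrigel group and from 7.16 to 11.12 in the Non-instigator group, far wider than its difference of -1.14 (SE 0.86, 95% interval -2.99 to 0.70). Plasma cell genes divided evenly, 5 higher and 5 lower, with a median of 0.00 that ran from -0.07 to 0.15 with single arrays left out (0.10 without Matrigel 3), and pre-B receptor and recombination genes 4 and 4, with a median of -0.01 that ran from -0.09 to 0.12.

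**Figure D4:**
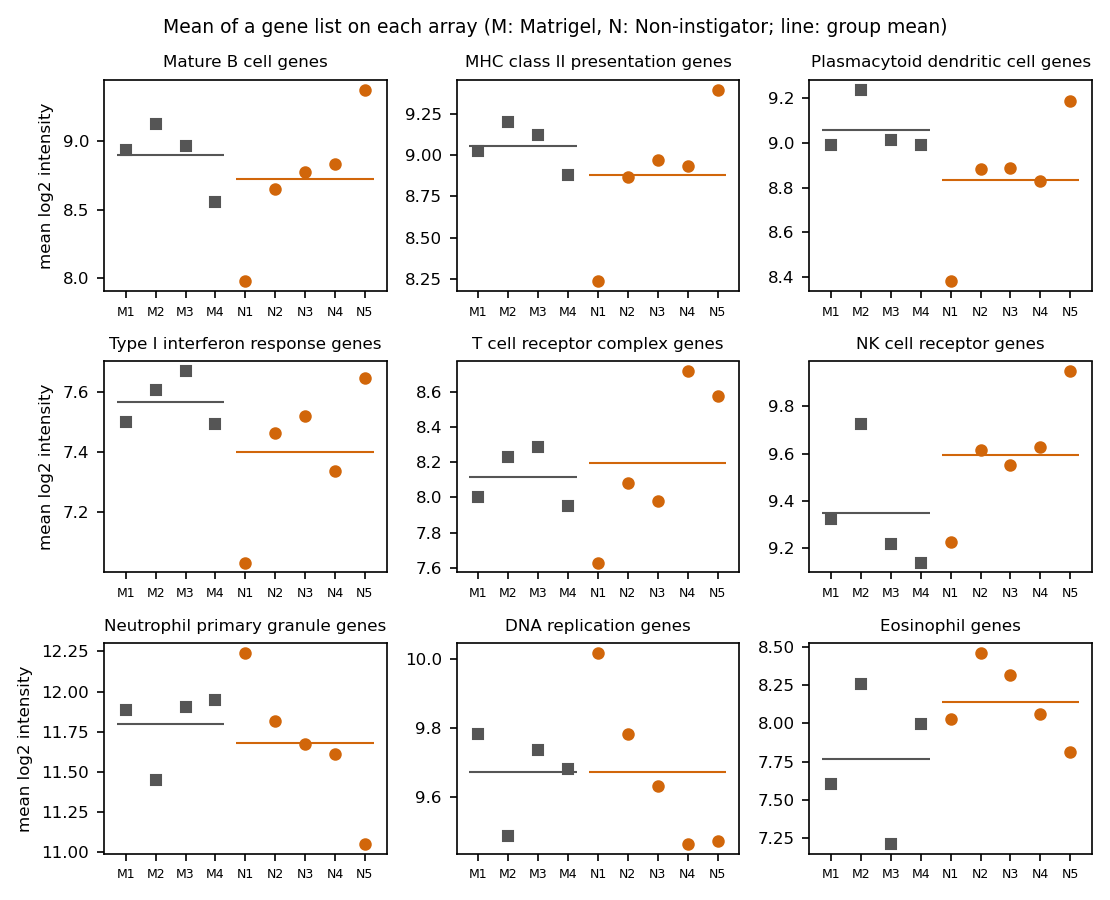
Mean log2 intensity of 9 gene lists on each array, Matrigel 1 to 4 (grey squares) and Non-instigator 1 to 5 (orange circles), with a line at each group mean. Non-instigator 1 is the lowest array for mature B cell, MHC class II, plasmacytoid dendritic and interferon genes (7.98, 8.23, 8.38 and 7.03) and the highest for primary granule genes (12.24), and Non-instigator 5 lies at the other end for mature B cell, MHC class II and primary granule genes (9.37, 9.40 and 11.05).

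Dendritic cell genes showed the lowest list median. Of 11 plasmacytoid dendritic cell genes, which mark the main producers of type I interferon, 9 were lower with a median of -0.31 (-0.28 without Matrigel 3, -0.16 without Non-instigator 1 and -0.42 without Non-instigator 5). Cox6a2, a respiratory subunit found in these cells, was at 8.80, 8.92, 8.92 and 8.87 on the Matrigel arrays and at 8.22, 8.76, 8.70, 8.34 and 8.88 on the Non-instigator arrays. Only Non-instigator 5 reached the control range for Cox6a2, and the difference was -0.30 (SE 0.13). Tlr7, the endosomal receptor for single-stranded RNA, differed by -0.37 (SE 0.19), Ccr9, a chemokine receptor, by -0.41 (SE 0.26), and the transcription factor Tcf4, which specifies the lineage, by -0.33 (SE 0.21).

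Among 13 conventional dendritic cell genes 9 were lower, with a median of -0.10 (-0.10 without Matrigel 3, 0.05 without Non-instigator 1, -0.18 without Non-instigator 4). Xcr1, the chemokine receptor of cross-presenting dendritic cells, was at 5.12, 5.17, 5.44 and 5.27 against 5.05, 5.03, 5.05, 5.04 and 4.90. The groups did not overlap, at low intensities and with a difference of -0.23 (SE 0.08, adjusted p = 0.986). Clec10a, a lectin of dendritic cells and macrophages, differed by -0.34 (SE 0.15) with overlapping groups. All 8 MHC class II presentation genes were lower, with a median of -0.17 (-0.15 without Matrigel 3), but this was -0.02 without Non-instigator 1 and -0.29 without Non-instigator 5. Cd74, the invariant chain that guides class II molecules, read 11.89, 12.18, 12.22 and 11.84 against 10.77, 11.70, 11.79, 11.84 and 12.45. Only Non-instigator 1 stood far below the controls for Cd74, and Non-instigator 5 lay above them all.

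Monocyte and macrophage genes were lower for 12 of 17, with a median of -0.13 (-0.07 without Matrigel 3). Ly86, which partners the receptor CD180, differed by -0.23 (SE 0.11), and the IgG receptor Fcgr1 by -0.38 (SE 0.21). Red cell and haem synthesis genes were higher for 15 of 19, with a median of 0.15 (0.11 without Matrigel 3, 0.07 without Matrigel 4). Megakaryocyte and platelet genes were lower for 8 of 10 with a median of -0.08, and 5 of 10 without Matrigel 3. The platelet chemokine Pf4 ranged from 5.84 to 8.26 within the Non-instigator group, wider than its difference of -0.61 (SE 0.48). Mesenchymal and endothelial genes, which Sca1+ stroma would contribute, had a median of -0.07 with 15 of 19 lower. Without Matrigel 3 the median was -0.03, with 12 of 19 lower. Matrigel 3 was the highest Matrigel array for 12 of the 19, and for 6659 of all 12393 genes. The chemokine Cxcl12 was at 8.27 on Matrigel 3 and 6.96 to 7.57 on the other 3. Its difference of -0.21 became 0.02 without that array.

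Fos and Dusp1, an immediate early transcription factor and a phosphatase of MAP kinases, were highest on Non-instigator 3, at 10.32 and 11.34, against 7.63 to 8.24 and 9.30 to 10.53 in the Matrigel group, and Dusp1 was at 11.02 on Non-instigator 4. Fos differed by 0.58 (SE 0.56) and Dusp1 by 0.64 (SE 0.38). The 18 immediate early genes divided into 10 higher and 8 lower, with a median of 0.02 (0.09 without Matrigel 3). Hspa1b, an inducible heat shock protein, read 8.13 on Matrigel 3, 8.06 on Non-instigator 3 and 8.99 on Non-instigator 4, and 5.70 to 6.56 on the other 6 arrays. Its difference of 0.70 (SE 0.62) was 1.23 without Matrigel 3, with no call in either fit.

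Genes of growth and metabolism were close to the background of all genes. DNA replication genes were higher for 12 and lower for 15 of 27, with a median of -0.02 (0.00 without Matrigel 3), and mitosis genes 10 and 11 of 21, with a median of -0.01 (-0.03 without it). Respiratory chain genes had a median of 0.01 (0.01 without Matrigel 3), cytosolic ribosomal protein genes -0.02 (0.00), endoplasmic reticulum folding genes -0.05 (-0.01), lysosome genes -0.04 (-0.07) and heat shock and proteasome genes -0.04 (-0.01). Glycolysis and hypoxia genes were higher for 11 of 17, with a median of 0.07 (0.04), and tRNA synthetase and amino acid stress genes for 13 of 23, with a median of 0.06 (0.07). Vhl, the ubiquitin ligase subunit that targets hypoxia-inducible factors, had the second smallest p among lower genes: it was at 5.84, 5.67, 6.18 and 5.88 against 5.27, 5.33, 5.75, 5.53 and 5.40, a difference of -0.43 (SE 0.11). These are low intensities, and Matrigel 3 was the highest array. Only Non-instigator 3 overlapped the control range for Vhl, and the difference was -0.34 without Matrigel 3.

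Sox4, a transcription factor of lymphoid progenitors, was lower on its brightest probe set, at 9.43, 9.42, 8.93 and 9.05 against 8.82, 8.63, 9.02, 8.83 and 8.54. The difference was -0.44 (SE 0.15), and -0.53 without Matrigel 3, where that array was the lowest control. Its other 5 probe sets gave values from -0.46 to 0.17, and from -0.36 to -0.01 without Matrigel 3. The Sox4 probe sets thus differed in size, and in sign only with Matrigel 3 included. The transcriptional repressors Zeb2 and Snai1 differed by -0.55 (SE 0.17) and -0.35 (SE 0.12), at low intensities and with Matrigel 3 as the highest array, and by -0.37 and -0.21 without it.

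Kit, the receptor sorted against, was at 7.52 ± 0.37 (SD, n = 4) in the Matrigel group and 7.37 ± 0.45 (SD, n = 5) in the Non-instigator group. Its brightest probe set read 8.05, 7.41, 7.44 and 7.18 on the Matrigel arrays and 7.97, 7.18, 7.65, 7.21 and 6.82 on the Non-instigator arrays, with Matrigel 1 and Non-instigator 1 highest. In a two-sided exact permutation test over all 126 assignments of the 9 arrays, p was 0.563, and 0.0952 for the dimmer Kit probe set, which differed by -0.31. No probe set names Ly6a alone, so the antigen sorted for was not checked. The progenitor surface genes divided into 4 higher and 5 lower, with a median of -0.02 (-0.08 without Matrigel 3). Cd34, a sialomucin of progenitors and endothelium, differed by -0.25 (SE 0.22).

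Grn encodes granulin, the secreted growth factor for which the study of instigating tumours is known. Its brightest probe set was at 10.66, 10.48, 10.19 and 10.50 on the Matrigel arrays and at 10.28, 10.30, 10.44, 10.37 and 10.64 on the Non-instigator arrays. The groups overlapped fully, and the difference was -0.05 (SE 0.11, 95% interval -0.27 to 0.18, two-sided exact permutation p = 0.651). The interval of this Grn probe set excludes a rise or fall of 0.5 on the log2 scale. The 2 other Grn probe sets, both marked x_at, gave -0.34 and -0.25, with exact permutation p-values of 0.0238 and 0.0794, or 0.119 and 0.159 after adjustment over the 5 probe sets of Kit and Grn. Their 95% intervals, -0.63 to -0.05 and -0.54 to 0.04, include a fall of 0.5. Without Matrigel 3 the 3 Grn differences were -0.14, -0.26 and -0.18. Secreted matrix, protease and growth factor genes, among which Grn is listed, were lower for 15 of 19, with a median of -0.06 (-0.06 without Matrigel 3).

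The same fit set the 2 tumour groups against each other, and values follow for some of the genes named above. Over all probe sets, Instigator minus Non-instigator gave 0 calls with limma, a smallest adjusted p of 0.813 and 1268 probe sets at an unadjusted p below 0.05. Serpinb9b was at 8.76 in the Instigator group, with Instigator minus Non-instigator at -1.06, and Fcgr1 at 7.65, with 0.70. On their brightest probe sets, Slc25a20, Il1r2 and Scd2 were at 9.90, 7.48 and 10.40 in the Instigator group, within 0.06 of their Non-instigator means. The dimmer Scd2 probe set that separated the groups more widely had an Instigator mean of 7.998 and a Non-instigator mean of 8.53. Instigator 4 read 6.35 there, and the other Instigator arrays lay between 8.33 and 8.48. The third Scd2 probe set also had a lower mean in the Instigator group. The comparisons of each tumour group with Matrigel share the same 4 control arrays, so these levels are given side by side only.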

How the data were processed

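The deposited values are RMA intensities on a linear scale, 1 column per array, made by the authors with affy in R 2.11.0, per the submitters' processing notes. RNA was labelled by the NuGen Ovation method, per the labels' protocols; no genome build or filter is recorded there. Groups came from the sample titles. Intensities were converted to log2, 64 control probe sets were left out of 22690, and 22626 were fitted with limma 3.58.1 (R 4.3.3) on all 14 arrays in 1 model, with Benjamini-Hochberg adjustment. Of these probe sets 20380 had 1 gene symbol in the platform annotation, 691 several and 1555 none. Kit and Grn were tested by exact permutation. Scripts were tested on simulated data. The number of arrays limits the precision.

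The genes named were a selection from the 10 per direction with the smallest p with and without Matrigel 3, the 5 largest differences and 8 widest gaps between groups per direction at a mean log2 of at least 7, Kit, Grn, and up to 6 members of each of 33 lists (496 of 569 listed genes measured). Members and lists were chosen with earlier results of these data known. The title and source of Instigator 5 place it with BPLER, but its description names PC3; it was kept with its title. Alternatives covered arrays left out, normalization, filtering, variance model, array weights, replicate block and averaging of probe sets.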

Additional observations from a re-analysis of the deposited data

Results flagged for a closer look

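The highest or lowest array of a group was compared with the nearest other array, as a share of the group's range, for the 33 list means and 113 genes drawn from those the naming rule allows, some of which are not printed. Of 292 such groups 22 had an array past Dixon's 95% critical value. Chance flags about 1 in 20 groups that are independent and unselected. These genes were chosen from the same arrays and some belong to the lists, so that rate is no yardstick for the 22. Matrigel 3 was the array in 8 of the 22.

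On Matrigel 3 a low value was that of Cpt1a, at 8.06 on its brightest probe set (other Matrigel arrays 9.45 to 9.56). Low too were the Myc antagonist Mxi1 at 9.73 (10.22 to 10.26) and the interleukin 5 receptor gene Il5ra at 4.76 (5.76 to 5.94). The high values were Zeb2 at 6.43 (5.66 to 5.72), the phosphodiesterase Pde8a at 8.70 (8.11 to 8.18), the pre-B receptor component Igll1 at 10.75 (9.92 to 10.06), Oas1a at 8.89 (8.10 to 8.16) and the small heat shock protein Hspb1 at 6.14 (5.61 to 5.70).

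Matrigel 2 was low for the mean of neutrophil primary granule genes, at 11.45 (11.88 to 11.95), and for 2 of its members, Prtn3 at 11.36 (11.96 to 12.06) and Ctsg at 12.17 (12.66 to 12.74). It was high for the mean of plasmacytoid dendritic cell genes, at 9.24 (8.99 to 9.01), for the transcription factor Spib of that list, at 11.71 (11.02 to 11.07), for the mean of interleukin 1, TNF and chemokine genes, at 7.52 (7.39 to 7.41), and for the adhesion receptor Cd2, at 10.56 (9.98 to 10.07). Matrigel 1 was low for Serpinb9b, at 8.35 (9.24 to 9.34), and Matrigel 4 for the B cell receptor inhibitor Cd22, at 8.32 (9.08 to 9.19).

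In the Non-instigator group, Non-instigator 5 was high for Ifi202b, at 10.82 (other arrays 9.50 to 9.84), and for Ighg3, at 11.12 (7.16 to 8.07), and low for Xcr1, at 4.90 (5.03 to 5.05). Non-instigator 3 was high for Slc25a20, at 10.04 (9.83 to 9.88), and Non-instigator 2 low for the mean of progenitor surface genes, at 8.26 (8.34 to 8.37).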

How the results depend on the processing

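All 20 alternatives called 0 probe sets, with smallest adjusted p-values from 0.0623 to 1.00. The groups were separate for 65 probe sets higher and 138 lower. Leaving out each Matrigel or Non-instigator array in turn gave 84 to 260 higher and 98 to 1019 lower at an unadjusted p below 0.05, and 108 to 242 higher and 184 to 728 lower with separate groups; the lowest p-value counts came without Matrigel 3 and the highest without Matrigel 1. Without Instigator 4 the p-value counts were 260 and 576, and without it and Matrigel 3 there were 223 higher, with 203 separate higher. Counting Instigator 5 as Non-instigator left 79 separate lower. Quantile normalization gave 245 higher and 124 separate higher, and centring 274 and 201, with 139 and 81 separate. The 11313 brighter probe sets alone gave 81 and 89, with 39 separate lower, and array weights 342 higher.

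Replicate numbers did not pair the arrays: deviations of same-numbered arrays correlated at 0.17, -0.20, -0.06 and -0.12. With the replicate block 159 were higher and 466 lower, the progenitor median was -0.086 and Cd8a -0.011, and no call changed. Centring gave medians of -0.0059 for secreted matrix, 0.036 for ribosomal protein and 0.015 for lysosome genes, and the brighter probe sets -0.21 for mesenchymal genes. Of 660 list medians 654 moved by less than 1 SD, here the pooled SD of the list mean between arrays of a group. That measure is wide: the mature B cell median, -0.20 with all arrays and 0.01 without Non-instigator 1, counts among the 654. Signs turned in 15 of 2243 values of 113 genes, none called. With single arrays left out the progenitor median ran from -0.084 to 0.058, Kit from -0.30 to 0.024, Grn from -0.14 to 0.019, Cxcl12 from -0.42 to 0.019, Sdc1 from -0.54 to 0.0030, Irf4 from -0.29 to 0.21, Prtn3 from -0.39 to 0.0032 and Cd8a from -0.20 to 0.38. Grn was 0.0071 after centring and 0.0052 with Instigator 5 moved, and Cxcl12 0.019 without Instigator 4 and Matrigel 3. Array weights gave Igll1 0.0021, Irf4 0.094 and Cxcl12 0.021. The cause was not tested. The 4 and 5 arrays limit the precision.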

Other observations

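Some genes came forward when Matrigel 3 was left out. Pde2a, a phosphodiesterase that degrades cyclic nucleotides, was at 7.84, 8.01, 8.08 and 7.64 on the Matrigel arrays and at 8.10, 8.30, 8.09, 8.22 and 8.22 on the Non-instigator arrays. Its difference was 0.29 (SE 0.11) with all arrays and 0.36 without Matrigel 3, and the groups were separate both ways. Pde8a, of the same enzyme family, differed by 0.16 (SE 0.12) and by 0.30 without Matrigel 3, while its dimmer probe set gave -0.13 and 0.02. Ptgir, the receptor for prostacyclin that raises cyclic AMP, differed by 0.26 (SE 0.14) and by 0.37. None of these was called by limma.

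Among genes with separate groups, Mxi1, an antagonist of Myc, was at 10.22, 10.22, 9.73 and 10.26 on the Matrigel arrays and within 10.36 to 10.43 on the 5 Non-instigator arrays. Its difference of 0.29 (SE 0.13) was 0.17 without Matrigel 3, while its dimmer probe set gave 0.09 and -0.02. The mitotic kinase Nek6 had a narrow Matrigel group, 7.35 to 7.42, above Non-instigator values of 6.90 to 7.27, with a difference of -0.27 (SE 0.13). The Instigator mean of Nek6 was 7.46, with Instigator 4 highest at 7.94. The dimmer Nek6 probe sets gave -0.08 each, with overlapping groups. The histone methyltransferase Nsd1 differed by -0.40 (SE 0.19), with Matrigel values from 7.34 to 7.66 and Non-instigator values from 6.78 to 7.30. All 3 probe sets of the membrane protein gene Tmem168 were lower, with differences of -0.24, -0.32 and -0.31.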
